A study of Mus musculus with 8 samples.

Results

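The amino acid transporter genes described here are those whose symbol on the array begins with Slc1a, Slc3a, Slc6a, Slc7a, Slc36a, Slc38a or Slc43a, the solute carrier families that hold most amino acid carriers of the mouse. Of 18193 genes with a single symbol on the array, 63 met this rule, and 44 of them passed a filter on low signals and were tested among 14004 genes. The rule goes by name, so it also takes carriers of other cargo (creatine, taurine, monoamines) and 3 symbols for other transcripts, Slc7a6os, Slc36a1os and Slc6a19os. The samples were mouse pluripotent cells on 8 Affymetrix arrays. They comprised 1 embryonic stem (ES) cell line and 3 lines of induced pluripotent stem (iPS) cells, which are made from somatic cells by reprogramming to pluripotency, with 2 arrays each. The series title calls the iPS cells integration-free. All 4 lines were male and C57BL/6, were kept in N2B27 medium plus LIF, the leukaemia inhibitory factor, and were taken between passage 7 and passage 10. Each iPS group is a single line, so a difference seen in 1 line is a difference of that line. The arrays are titled biological replicates, separate cultures are not stated, and the p-values therefore measure only the spread between these arrays.

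Amino acids cross the plasma membrane through carriers that differ in cargo and in driving force. Some, such as the Slc1a and many Slc6a and Slc38a proteins, use the sodium gradient to load the cell, others exchange one amino acid for another, and a few work at the lysosome. The light chains of the Slc7a family reach the cell surface only when bound to a heavy chain, Slc3a2 or Slc3a1. Mouse ES cells are known for a strong dependence on threonine.

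The 8 arrays had median signals of 54.1 to 64.3, and 58.1% to 61.4% of probe sets exceeded a low-signal floor of 37.1, the 40th percentile of all signals. Replicate arrays correlated at 0.981 to 0.983 over tested genes. ES cells correlated with line 1 and line 3 at 0.979 each and with line 2 at 0.968. All 8 ES cell markers were above the floor in every array (Pou5f1, Nanog, Sox2 and 5 more). Utf1 was lowest in line 2 (702 and 542 against 880 to 1202 elsewhere), as was Pou5f1 (10646 and 9680 against 10681 to 12035). Tdgf1 (21814 and 22504 against 19383 to 21584) and Dppa5a (41673 and 38062 against 32784 to 37665) were highest there. Line 2 had the highest ratios of the 3' to the 5' actin control probe set, 1.74 and 1.79 against 1.49 to 1.62 in the other 6 arrays. The summed signal of 8 fibroblast markers was 394 and 454 in line 2 and 220.1 to 275 elsewhere, with 3 of the 8 under the floor in every array. Pdgfrb carried that difference (247 and 177 in line 2 and 24.5 to 58.2 elsewhere), and without it the sums were 208 and 217 in line 2 and 162 to 251 elsewhere. The summed signal of 6 trophoblast markers was 3502 and 4073 in line 2 and 1842 to 2839 elsewhere. Most of that sum was Tfap2c (3056 and 3556 in line 2 and 1532 to 2495 elsewhere). Ascl2 was also highest in line 2 (277 and 295 against 46.9 to 91.4), Gata3 was lower there than in ES cells (24.4 and 25.5 against 54.3 and 84), and Cdx2, Elf5 and Hand1 in line 2 lay within the range of the other arrays. The summed signal of 6 neural markers was 869 to 909 in line 3, 854 to 946 in line 1, 584 and 669 in line 2, and 525 and 594 in ES cells. In every array of lines 1 and 3, Tubb3, Pax6 and Map2 were above and Sox1 was below both ES arrays. In line 2, Map2 was highest of all (224 and 232) and Sox1 was also below both ES arrays, but Pax6 was lowest (52.4 and 49.9). The summed signal of 7 primitive endoderm markers was 345 to 469 over all arrays. In line 2, Gata6 was highest (84.4 and 104) and Sox7 lowest (38.3 and 51.7). The actin ratio, Pdgfrb, Tfap2c, Ascl2, Utf1, Pou5f1, Tdgf1, Dppa5a, Map2, Pax6, Gata6 and Sox7 move with the line 2 results below, and their part in them was not tested. In such bulk samples, fewer cells of a type and less RNA per cell cannot be told apart.

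Of the 63 genes, 31 were above the floor in all 8 arrays, 13 were tested but were above it in only some arrays, and 19 were not tested, 13 of which stayed at or under the floor in every array. All 9 Slc38a genes and all 3 Slc43a genes were tested, as were 6 of 7 Slc1a, 11 of 16 Slc7a, 3 of 5 Slc36a, 1 of 2 Slc3a and 11 of 21 Slc6a genes. The untested group held Slc6a3 and Slc6a4, the dopamine and serotonin carriers, the GABA carriers Slc6a11 and Slc6a13 and the betaine carrier Slc6a12. It also held Slc7a11, the cystine and glutamate exchanger, Slc3a1, the heavy chain of the renal cystine carrier, and Slc36a4. The rest were Slc1a6, Slc6a14, Slc6a16, Slc6a20a, Slc6a21, Slc7a12, Slc7a13, Slc7a14, Slc7a15, Slc36a1os and Slc6a19os. The signals of Slc7a11 were 23.9 and 0.773 in ES cells, 3.37 and 33.8 in line 1, 27.1 and 20.1 in line 2, and 32.1 and 39.5 in line 3, so that 1 array alone passed the floor. Signals of different probe sets have no common scale, so no gene's level is set against another's.

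**Figure D1:**
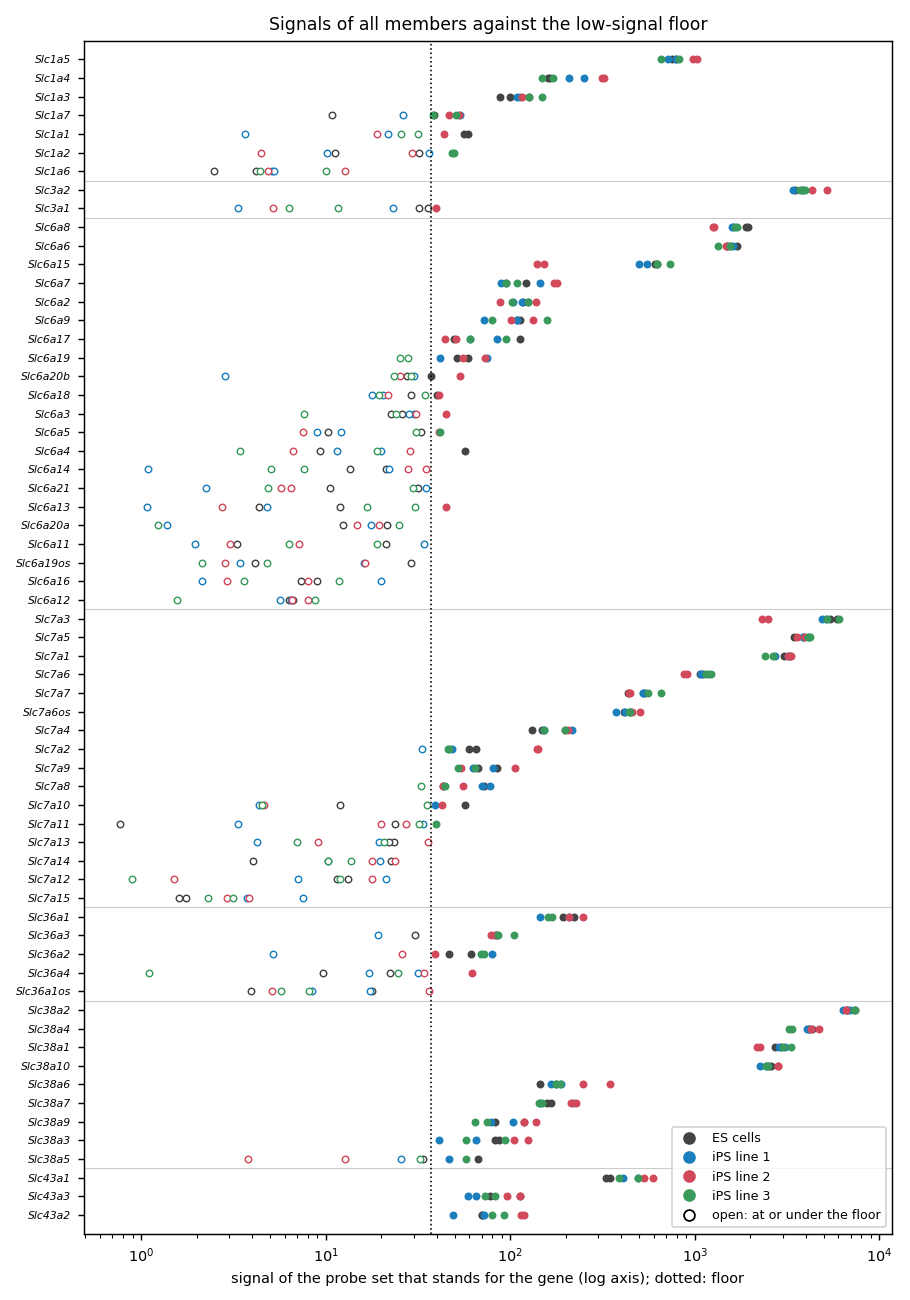
Signal of the probe set standing for each of the 63 member genes in each of 8 arrays (log axis, arbitrary linear units as deposited), ordered within families; colours mark the ES line and the 3 iPS lines, open points lie at or under the floor of 37.1 (dotted line). Of the 63 genes, 31 lie wholly to the right of the line and 13 wholly at or to the left of it.

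Against ES cells, line 2 carried most of the changes in these families. Of the 44 tested members, 6 were higher in line 2 (Slc7a2, Slc1a4, Slc38a6, Slc43a1, Slc1a5 and Slc3a2) and 6 were lower (Slc6a15, Slc38a5, Slc7a3, Slc6a8, Slc38a1 and Slc7a6) by limma at an adjusted p under 0.05. These are 13.6% of members in each direction, against a background of 16.1% of all tested genes called higher and 10.6% called lower in line 2, so the share of members that moved was near that of all genes. No member was called in line 1 in either direction by limma, where 1.21% of all tested genes were called higher and 1.12% lower; 4 members had an unadjusted p under 0.05. In line 3, no member was called higher, with 1.59% of all genes so called, and 1 member, Slc38a4, was called lower, with 2.57% of all genes so called; 8 members had an unadjusted p under 0.05. The median member log2 difference was 0.07 in line 2, -0.08 in line 1 and -0.04 in line 3, beside 0.07, 0.01 and -0.01 over all tested genes. The 3 comparisons share the ES arrays. Centring each array on its median moved the line 2 median over all genes from 0.07 to -0.06 and left 4 members higher and 6 lower; quantile normalization left 5 higher and 6 lower.

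**Figure D2:**
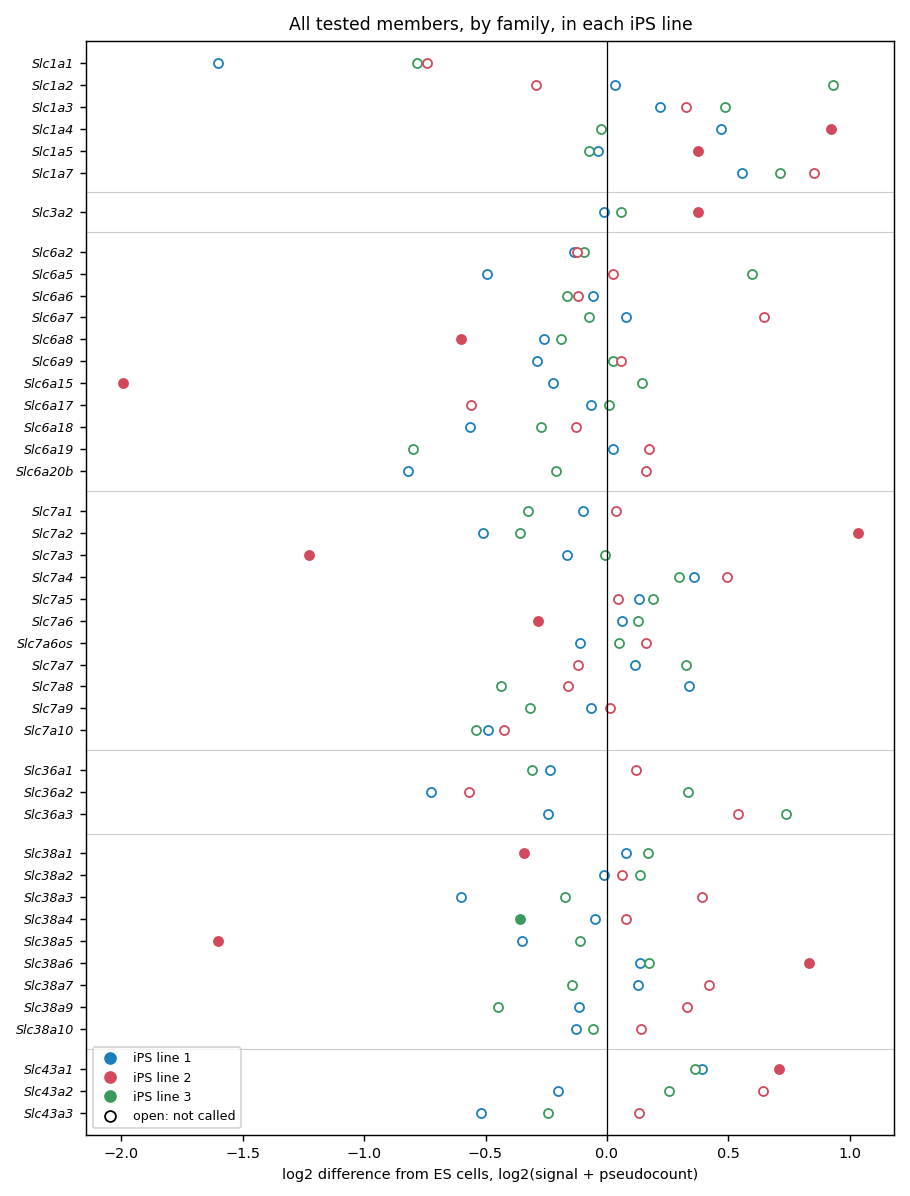
Log2 difference from ES cells, on the log2(signal + 12) scale, of the 44 tested members in iPS lines 1, 2 and 3, grouped by family from Slc1a at the top to Slc43a at the bottom; filled points passed an adjusted p of 0.05 in limma and open points did not. Of the filled points, 12 belong to line 2, 1 to line 3 (Slc38a4) and none to line 1.

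The carriers of arginine and lysine went apart in line 2. The signals of Slc7a3, a cationic amino acid carrier of the plasma membrane, were 5883 and 5407 in ES cells, 4916 and 5158 in line 1, 2481 and 2326 in line 2, and 5235 and 6024 in line 3. Both line 2 arrays were below all other arrays, and the other 3 groups lay close together. Slc7a3 was 2.34-fold lower in line 2 than in ES cells, a log2 difference of -1.23 ± 0.08 (SE; adjusted p = 3.88e-07, limma; differences and folds are on the log2(signal + 12) scale, which understates those of dim genes), with -0.16 in line 1 and -0.01 in line 3. Slc7a2, a cationic carrier with splice forms of different affinity, went the other way, with signals of 65.7 and 59.7 in ES cells, 33.4 and 48.4 in line 1, 139.9 and 141 in line 2, and 46 and 46.6 in line 3. The line 2 arrays were the 2 highest, and the line 1 and line 3 arrays lay under both ES arrays. Slc7a2 was 2.05-fold higher in line 2, a log2 difference of 1.03 ± 0.30 (adjusted p = 0.0232, limma); the adjusted p was 0.0686 without ES array 1, 0.0948 without ES array 2, 0.107 without line 2 array 1 and 0.109 without line 2 array 2. Slc7a1, the cationic carrier that ecotropic retroviruses also use to enter mouse cells, gave signals of 3303 and 3033 in ES cells, 3197 and 2726 in line 1, 3314 and 3193 in line 2, and 2659 and 2393 in line 3. The line 3 arrays were the 2 lowest, at a log2 difference of -0.33 ± 0.09 from ES cells that did not pass (adjusted p = 0.0553, limma) but passed at 0.0413 without line 1 array 1 and 0.041 without line 1 array 2. In line 2 the difference of Slc7a1 was 0.04 ± 0.09.

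Among the heteromeric carriers, the shared heavy chain rose in line 2 and its light chains did not follow it together. The heavy chain Slc3a2 had signals of 3837 and 3503 in ES cells, 3861 and 3425 in line 1, 5217 and 4336 in line 2, and 3936 and 3699.8 in line 3. Both line 2 arrays exceeded every other array. Slc3a2 was 1.3-fold higher in line 2 (log2 difference 0.37 ± 0.09, adjusted p = 0.00891, limma). The adjusted p was 0.0842 without ES array 2 and 0.0939 without line 2 array 1, and 0.0881 under median centring of the arrays. Slc7a5, the light chain that brings in large neutral amino acids such as leucine, had signals of 3875 and 3440.4 in ES cells, 4173 and 3845 in line 1, 3576 and 3984 in line 2, and 4222 and 4103 in line 3. Lines 1 and 2 overlapped ES cells, line 3 lay above both ES arrays, and no difference from ES cells passed (line 2 0.05 ± 0.08, line 3 0.19 ± 0.08). Slc7a6, a light chain that exchanges cationic for neutral amino acids, had signals of 1109 and 1071 in ES cells, 1199 and 1083 in line 1, 908 and 877 in line 2, and 1152 and 1232 in line 3. Its line 2 arrays were the 2 lowest, 1.22-fold under ES cells (log2 difference -0.28 ± 0.09, adjusted p = 0.0272, limma), with 0.143 without ES array 1, 0.0799 without ES array 2, 0.0599 without line 2 array 1 and 0.108 without line 2 array 2. The other probe set of Slc7a6 read -0.12 in line 2, and averaging the probe sets ended the call. Slc7a7, the related exchanger of gut and kidney, had signals of 537 and 434 in ES cells, 523 and 525 in line 1, 439.7 and 447 in line 2, and 660.1 and 559 in line 3. No line differed from ES cells for Slc7a7 by this test, with log2 differences of 0.11, -0.12 and 0.32 in lines 1, 2 and 3. Slc7a8, a light chain for neutral amino acids, was above the floor in 7 arrays, and Slc7a10, the carrier of small neutral amino acids such as serine, in 3. Neither passed in any line; the differences of Slc7a8 were 0.34, -0.16 and -0.44, and those of Slc7a10 were -0.49, -0.43 and -0.54.

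Both sodium-dependent exchangers of small neutral amino acids in the Slc1a family were higher in line 2. Slc1a4, which exchanges alanine, serine, cysteine and threonine, had signals of 160.0 and 165 in ES cells, 209 and 251 in line 1, 321 and 315 in line 2, and 171 and 148 in line 3. The line 2 arrays were the 2 highest, line 1 lay between them and ES cells without touching either, and line 3 overlapped ES cells. The rise of Slc1a4 was 1.89-fold in line 2 (log2 difference 0.92 ± 0.16, adjusted p = 0.0012, limma), while line 1 (0.47 ± 0.16, adjusted p = 0.199) did not pass. A second probe set of Slc1a4 read 1.29 higher in line 2. The last, a dim one, read 0.87 higher but rests on 1 array, with signals of 115 and 5.56 in line 2 and 18.2 and 10 in ES cells. Slc1a5, the glutamine exchanger, had signals of 794 and 754 in ES cells, 789 and 718 in line 1, 1035 and 982 in line 2, and 822 and 657 in line 3. Again the line 2 arrays were the 2 highest and the other groups overlapped. Slc1a5 was 1.3-fold higher (log2 difference 0.38 ± 0.11, adjusted p = 0.0244, limma), and its other probe set was higher by 0.58. This call was lost at 0.0707 without ES array 1, 0.129 without ES array 2, 0.116 without line 2 array 1 and 0.0562 without line 2 array 2, and at 0.0531 with quantile normalization and 0.16 with median centring. The glutamate carriers did not pass in any line. Slc1a3, the glial glutamate carrier, had signals of 88.3 and 100.4 in ES cells, 109 and 114 in line 1, 116 and 127 in line 2, and 148 and 126 in line 3, with every iPS array above both ES arrays and log2 differences of 0.22, 0.32 and 0.49. Its 3 other probe sets that passed the filter read -0.41 to -0.05 in line 2, so the direction there depends on the probe set. Slc1a1, the neuronal and epithelial glutamate carrier, had signals of 56.3 and 59.2 in ES cells, 3.64 and 21.7 in line 1, 19.1 and 43.9 in line 2, and 31.8 and 25.6 in line 3, with every iPS array below both ES arrays and 5 of the 6 iPS arrays at or under the floor. The level in ES cells was at least 1.56-fold that of line 1 and of line 3, whose arrays all lay under the floor, and neither difference passed (adjusted p = 0.186 and 0.508, limma). A second probe set of Slc1a1, likewise above the floor in 3 arrays, read -0.11, 0.52 and 0.39 in lines 1, 2 and 3, so the direction in lines 2 and 3 depends on the probe set.

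The starts of 46 of the 63 genes are covered by RefSeq promoter windows (GRCm38.p6, 250 bases before to 50 bases after a start). Since several genes of the amino acid response rose in line 2 (below), the windows were searched on both strands for 5 motifs, and the stretches shown were chosen after the matches were seen. TTGCATCA, the composite element read by ATF4 with C/EBP proteins, is in 294 of 32851 windows (0.895%), which belong to 1.03% of all genes with a window, and in those of 3 members, Slc1a4, Slc7a7 and Slc7a11. The looser TGATGNAA, which overlaps the reverse complement of TTGCATCA, is in 3.97% of windows, 4.51% of genes and 4 members. The E-box CACGTG, read by Myc and by Tfeb and Tfe3, is in 7.15% of windows, 8.09% of genes and 9 members, and its core ACGTG, which every CACGTG contains, is in 19.6% of windows, 21.8% of genes and 17 members. TGACNNNGC, the core of the antioxidant response element, is in 12.4% of windows, 14% of genes and 10 members. The stretches below run from 100 bases before to 20 bases after the start, 5′ to 3′ on the gene's strand, with TTGCATCA, its reverse complement or CACGTG in capitals. They lie at chr11:20332694-20332813 (minus strand) for Slc1a4, chr14:54417925-54418044 (minus strand) for Slc7a7, chr3:50443594-50443713 (minus strand) for Slc7a11 and chr2:84840223-84840342 (plus strand) for Slc43a1.
Slc1a4: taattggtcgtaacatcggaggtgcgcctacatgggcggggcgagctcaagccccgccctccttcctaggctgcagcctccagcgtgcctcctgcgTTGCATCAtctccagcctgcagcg
Slc7a7: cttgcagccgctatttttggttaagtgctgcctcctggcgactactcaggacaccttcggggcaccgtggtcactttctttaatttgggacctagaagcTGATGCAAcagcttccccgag
Slc7a11: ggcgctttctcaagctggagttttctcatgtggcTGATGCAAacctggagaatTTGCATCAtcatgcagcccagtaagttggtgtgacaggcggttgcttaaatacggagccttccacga
Slc43a1: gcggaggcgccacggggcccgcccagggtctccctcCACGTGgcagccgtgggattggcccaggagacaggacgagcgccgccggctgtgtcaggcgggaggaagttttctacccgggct
The match in Slc1a4 spans the start, from -4 to 4, that in Slc7a7 runs from -1 to 7, and Slc7a11 holds the element on both strands, at -66 to -59 and at -47 to -40. The match in Slc43a1 lies at -64 to -59. Of these 4 genes, Slc1a4 and Slc43a1 were higher in line 2, Slc7a7 did not pass against ES cells and Slc7a11 was not tested. Of the other members with CACGTG, Slc38a5, with the match at -30 to -25, was lower in line 2, Slc1a7, Slc36a1 and Slc38a7 were called in no line, and Slc1a6, Slc6a3, Slc6a16 and Slc7a14 were not tested. A match describes letters in a window and shows no binding.

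In the Slc38a family, which carries glutamine and other small neutral amino acids with sodium, line 2 had 1 member higher and 2 lower, and line 3 had 1 lower. Slc38a5, a glutamine carrier of the system N type, had signals of 33.9 and 66.6 in ES cells, 25.8 and 46.8 in line 1, 12.8 and 3.79 in line 2, and 32.5 and 57.4 in line 3. Both line 2 arrays were under the floor and below every other array, and only 3 arrays of the 8 were above it. The fitted log2 difference was -1.60 ± 0.53 (adjusted p = 0.0403, limma), and against the floor ES cells were at least 1.28-fold higher. This call was lost at 0.0524 without ES array 1, 0.248 without ES array 2, 0.0539 without line 1 array 2, 0.0532 without line 2 array 1, 0.174 without line 2 array 2 and 0.0528 without line 3 array 2. Slc38a6 had signals of 145 and 177 in ES cells, 189 and 167 in line 1, 248 and 349.8 in line 2, and 186 and 178 in line 3. Its line 2 arrays were the 2 highest but also lay farthest apart, and Slc38a6 was 1.78-fold higher there (log2 difference 0.83 ± 0.19, adjusted p = 0.0065, limma), with 0.0585 without ES array 1 and 0.0807 without line 2 array 2.

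Slc38a1, Slc38a2 and Slc38a4, the system A carriers, all map to chromosome 15. Slc38a1 had signals of 2709 and 2918 in ES cells, 3084 and 2863 in line 1, 2183 and 2247 in line 2, and 3342 and 3003 in line 3. The line 2 arrays were the 2 lowest, at a log2 difference of -0.34 ± 0.08 (adjusted p = 0.00476, limma; 0.0566 without ES array 2). The other probe set of Slc38a1 read 0.19 higher in line 2, so the direction depends on the probe set. Slc38a2, the system A carrier induced when amino acids are scarce, had signals of 6713 and 6652 in ES cells, 6329.6 and 6944 in line 1, 6592 and 7370.3 in line 2, and 7258 and 7423 in line 3. These overlapped between ES cells, line 1 and line 2, and the differences were -0.01, 0.06 and 0.14 in lines 1, 2 and 3. Another probe set of Slc38a2 was highest in line 2, with 1468 and 1380 against 1195 and 1149 in ES cells. Its differences were -0.28, 0.28 and -0.01, and those of the remaining probe set were -0.64, -0.15 and -0.49. The direction in line 2 against ES cells thus depends on the probe set. Line 2 exceeded line 1 by 0.07, 0.56 and 0.49 in these probe sets in turn, a difference called by limma when they were averaged. Slc38a4, an imprinted gene expressed from the paternal allele, had signals of 4341 and 4171 in ES cells, 4185 and 4047 in line 1, 4259 and 4740.1 in line 2, and 3377 and 3251 in line 3. Both line 3 arrays were below all others, 1.28-fold under ES cells (log2 difference -0.36 ± 0.07, adjusted p = 0.0103, limma), with 0.108 without ES array 1, 0.0574 without ES array 2 and 0.0913 without line 3 array 2. The second probe set of Slc38a4 did not differ in this way, at 0.00 in line 3 and 0.47 in line 2. Slc38a9, the lysosomal arginine sensor, had signals of 118 and 83.1 in ES cells, 104 and 79 in line 1, 138 and 118 in line 2, and 64.8 and 74.5 in line 3, and its difference of 0.33 ± 0.26 in line 2 did not pass. Its 6 other probe sets read 0.54 to 1.45 higher in line 2. Slc38a3, a system N glutamine carrier, had signals of 82.9 and 87 in ES cells, 65.2 and 41 in line 1, 125 and 105 in line 2, and 57.6 and 94.3 in line 3 and passed against ES cells in no line (-0.60, 0.39 and -0.17).

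**Figure D3:**
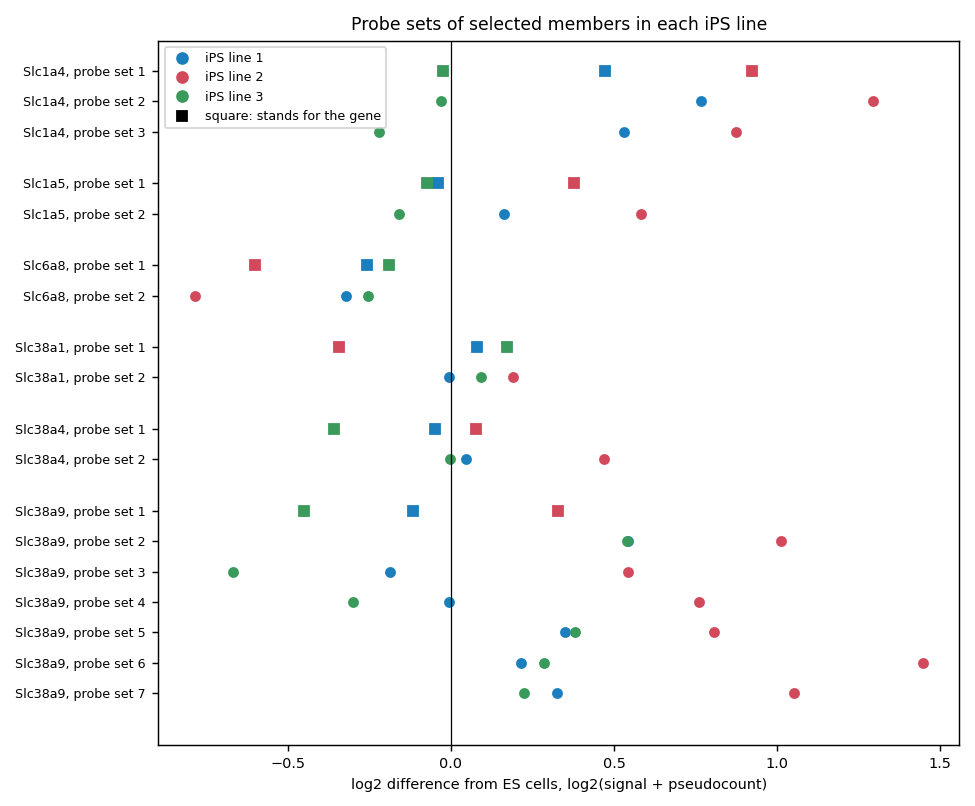
Log2 difference from ES cells, log2(signal + 12), for every probe set of Slc1a4, Slc1a5, Slc6a8, Slc38a1, Slc38a4 and Slc38a9 in each iPS line; squares mark the probe set with the highest mean, which stands for the gene. The line 2 points of Slc1a4, Slc1a5 and Slc6a8 keep 1 side of 0 over all their probe sets, while those of Slc38a1 fall at -0.34 and 0.19. The dimmest probe set of Slc1a4 rests on 1 line 2 array, with signals of 115 and 5.56. The genes drawn are a selection of the members.

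In the Slc6a family, Slc6a15 and Slc6a8 were lower in line 2. Slc6a15, a sodium-dependent carrier of branched-chain amino acids and proline, had signals of 623 and 607 in ES cells, 552 and 502 in line 1, 152 and 139.6 in line 2, and 629 and 738 in line 3. Line 2 was far below the other 6 arrays, with line 1 slightly under ES cells and line 3 slightly over them. Slc6a15 was 3.98-fold lower in line 2 (log2 difference -1.99 ± 0.12, adjusted p = 3.5e-07, limma), against -0.22 ± 0.12 in line 1 and 0.14 ± 0.12 in line 3. Slc6a8, the creatine carrier, had signals of 1890.4 and 1945 in ES cells, 1591 and 1610.4 in line 1, 1266 and 1255 in line 2, and 1652 and 1705 in line 3. Every iPS array was below both ES arrays, with line 2 the lowest at 1.52-fold under ES cells (log2 difference -0.60 ± 0.07, adjusted p = 5.89e-05, limma), and a second probe set read -0.79. Lines 1 and 3 differed by -0.26 ± 0.07 and -0.19 ± 0.07 (adjusted p = 0.0913 and 0.172), which did not pass. The taurine carrier Slc6a6 had signals of 1549 and 1688 in ES cells, 1489 and 1619 in line 1, 1501 and 1478 in line 2, and 1341 and 1548 in line 3, with differences of -0.06, -0.12 and -0.17 that did not pass. Slc6a9, a glycine carrier, also did not pass (-0.29, 0.06 and 0.03), and its probe sets differed, the second reading 0.71 in line 2. Slc6a7, a proline carrier, had signals of 122 and 95.5 in ES cells, 89.8 and 145 in line 1, 172 and 179 in line 2, and 95.4 and 109 in line 3, with both line 2 arrays above all others and a difference from ES cells of 0.65 ± 0.25 that did not pass (adjusted p = 0.0736, limma) but had an adjusted p of 0.047 without line 1 array 1.

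Slc43a1, a facilitated carrier of large neutral amino acids such as leucine, was above ES cells in every iPS array. Its signals were 329.8 and 346 in ES cells, 491 and 407 in line 1, 591 and 531 in line 2, and 495 and 389 in line 3, with the highest in line 2. The log2 difference was 0.71 ± 0.14 in line 2, 1.64-fold (adjusted p = 0.00256, limma), 0.39 ± 0.14 in line 1 and 0.36 ± 0.14 in line 3, the last pair not passing (adjusted p = 0.222 and 0.196). Its relative Slc43a2 had signals of 70.1 and 70.8 in ES cells, 72.3 and 49 in line 1, 119 and 114 in line 2, and 93.2 and 80.1 in line 3, with both line 2 arrays above all others and a difference of 0.64 ± 0.27 that did not pass (adjusted p = 0.108, limma). Slc43a3, which carries purine nucleobases and not amino acids, did not pass in any line (-0.52, 0.13 and -0.24). Slc36a1, the proton-coupled carrier of the lysosome, had signals of 194 and 221 in ES cells, 146 and 208 in line 1, 247 and 207 in line 2, and 161 and 169 in line 3 and likewise did not pass (-0.23, 0.12 and -0.31). The remaining tested members (Slc1a2, Slc1a7, Slc6a2, Slc6a5, Slc6a17, Slc6a18, Slc6a19, Slc6a20b, Slc7a4, Slc7a6os, Slc7a9, Slc36a2, Slc36a3, Slc38a7 and Slc38a10) were called against ES cells in no line by limma. Their differences ran from -0.82 to 0.56 in line 1, from -0.57 to 0.85 in line 2 and from -0.80 to 0.93 in line 3, where the smallest adjusted p values were 0.435, 0.1 and 0.301.

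**Figure D4:**
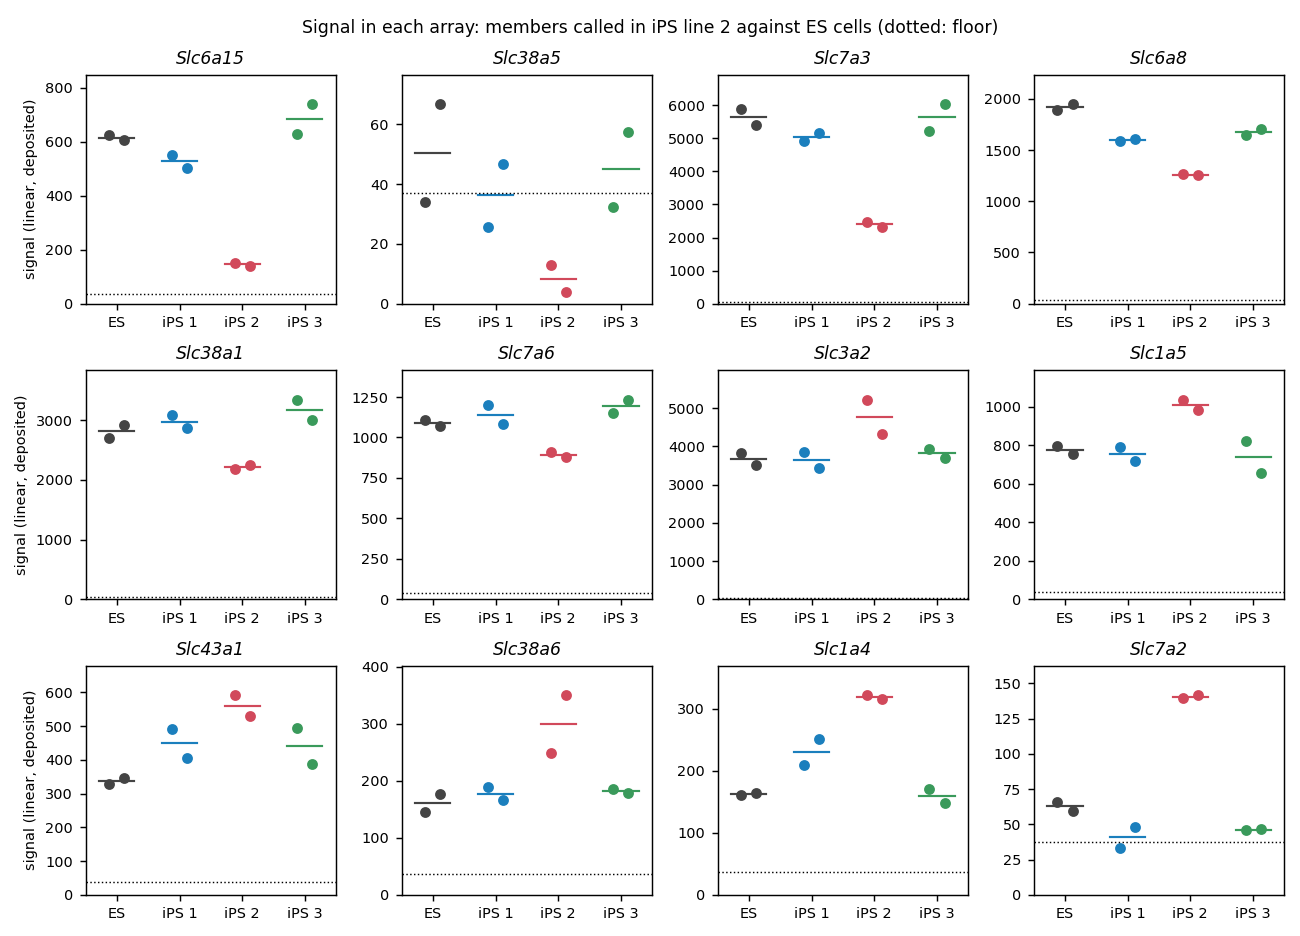
Deposited linear signal in each array (points) and group mean (bars) for the 12 members called in iPS line 2 against ES cells, ordered by the fitted log2 difference from Slc6a15, the most negative, to Slc7a2, the most positive; each panel starts at 0, and the dotted line is the floor of 37.1. The panels were chosen by that call, so the separation of line 2 points from ES points in them is no separate result. Some members that were not called, such as Slc43a2 and Slc38a3, were also separated in this way. Among the 12, Slc38a5 alone falls under the floor in line 2.

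Averaged over the 3 iPS lines with equal weight, 1 member was higher than in ES cells, Slc43a1 (0.49 ± 0.12, adjusted p = 0.0221, limma). Lower were 3 members, Slc6a15 (-0.69 ± 0.10, adjusted p = 0.00121), Slc7a3 (-0.47 ± 0.06, adjusted p = 0.000683) and Slc6a8 (-0.35 ± 0.06, adjusted p = 0.00277). The background was 4.27% of all tested genes higher and 3.03% lower, against 2.27% and 6.82% of members. The median was -0.05 over members and 0.02 over all genes. The means of Slc6a15 and Slc7a3 rest on line 2, since without that line they were -0.04 and -0.08, while Slc43a1 and Slc6a8 were 0.38 and -0.23; none of the 4 was then called (adjusted p = 0.875, 0.565, 0.141 and 0.0662, limma). Slc43a1 was also lost at 0.188 without ES array 1 and 0.116 without ES array 2, and Slc6a8 at 0.0591 without ES array 2. With the line means taken as samples, no member was called and none had an unadjusted p under 0.05 in limma.

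Between the iPS lines, line 2 again differed from both others. Against line 1 it had 7 members higher, 15.9% beside a background of 13.8%, and 5 lower, 11.4% beside 9.54%. Against line 3 it had 10 higher, 22.7% beside 19.0%, and 7 lower, 15.9% beside 12.1%. Centring each array on its median turned these splits to 1 higher and 6 lower against line 1, and to 3 higher and 9 lower against line 3, and moved the medians over all genes from 0.07 to -0.08 and from 0.08 to -0.10. Quantile normalization gave 5 higher and 5 lower, and 7 higher and 7 lower. The falls of Slc6a15 were -1.77 ± 0.12 against line 1 and -2.14 ± 0.12 against line 3, and those of Slc7a3 were -1.06 ± 0.08 and -1.22 ± 0.08. Line 3 against line 1 gave 1 member, Slc38a4, called lower (-0.31 ± 0.07, adjusted p = 0.0443, limma), with 1.06% of all genes called lower, and none higher, with 0.350% of all genes called higher; 4 members had an unadjusted p under 0.05. The Slc38a4 call had an adjusted p of 0.0745 without ES array 1, 0.0752 without ES array 2, 0.23 without line 1 array 1, 0.141 without line 1 array 2, 0.139 without line 3 array 1 and 0.226 without line 3 array 2, and 0.0511 with the replicate number as a block. The members' medians were 0.21, 0.14 and 0.07 for line 2 against line 1, line 2 against line 3 and line 3 against line 1, beside 0.07, 0.08 and -0.02 over all genes.

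The X chromosome held 3 of the 44 tested members, Slc7a3, Slc6a8 and Slc38a5, and all 3 were among the 6 members lower in line 2. Of 458 tested genes on the X chromosome, 50 (10.9%) were lower in line 2, close to the 10.6% of all tested genes, and 66 (14.4%) were higher.

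Genes that work beside these carriers moved mainly in line 2, as all tested genes did. Of all tested genes, 16.1% were called higher and 10.6% lower there. In a list of amino acid sensing and response genes, 10 of 27 were higher and 2 lower in line 2, with a median of 0.20. The response regulators Atf4, Ddit3, Cebpb, Cebpg and Trib3 and the glutathione-degrading enzyme Chac1 were among the higher genes. The list did not move as one, since 15 of the 27 were not called, among them Asns (0.09 ± 0.05) and Sesn2 (0.01 ± 0.13). Rraga was lower in line 2 (-0.39 ± 0.08, adjusted p = 0.00349, limma). The signals of Chac1 were 332 and 384 in ES cells, 457 and 374 in line 1, 995 and 1025 in line 2, and 297 and 418 in line 3, with line 2 above all others, at a log2 difference of 1.47 ± 0.16 (adjusted p = 2.84e-05, limma) and 0.20 and -0.02 in lines 1 and 3. Ddit3, the stress regulator CHOP, had signals of 341 and 373 in ES cells, 295 and 284 in line 1, 619.9 and 640.3 in line 2, and 266 and 263 in line 3 and differed by 0.80 ± 0.12 in line 2, with -0.29 and -0.42 in lines 1 and 3. Cebpg, a partner of ATF4, differed by 0.85 ± 0.10 in line 2. Myc, a regulator of growth and of several carriers, had signals of 368 and 414 in ES cells, 353 and 296 in line 1, 169.7 and 134 in line 2, and 426 and 320.3 in line 3 and was lower in line 2 by limma (-1.30 ± 0.17, adjusted p = 0.000156). Mycn went the other way and was higher in line 2 (0.26 ± 0.06, adjusted p = 0.00848, limma). Its differences in lines 1 and 3, 0.22 and 0.21, did not pass. Centring each array on its median lowered the line 2 difference of every gene, which matters most for small rises such as those of Mycn and Atf4 (0.23 ± 0.06). In lines 1 and 3, 1 gene of this list was called, Rragd, a GTPase that relays amino acid supply to mTORC1, which was higher in both (0.28 ± 0.06 and 0.37 ± 0.06). The background there was 1.21% and 1.59% of all tested genes called higher.

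Of 29 tested enzymes that make or use the carried amino acids, 8 were higher and 5 lower in line 2, with a median of -0.06. The shares over all tested genes were 16.1% and 10.6%. Aldh18a1 and Oat, enzymes of proline and ornithine metabolism, were higher by 0.88 ± 0.07 and 0.44 ± 0.07, and Gpt2, a mitochondrial alanine aminotransferase, by 0.89 ± 0.11. Aldh18a1 was also called higher in line 1 (0.43 ± 0.07, adjusted p = 0.00671, limma), while its 0.17 ± 0.07 in line 3 did not pass. Its mean over the lines was called as well (0.49 ± 0.06, adjusted p = 0.000227, limma). Glul, which makes glutamine, had signals of 3290.2 and 2997 in ES cells, 2724 and 3187 in line 1, 1642 and 1649.5 in line 2, and 3992 and 4160.1 in line 3. It was lower in line 2 (-0.93 ± 0.08) and higher in line 3 (0.37 ± 0.08), with adjusted p of 5.79e-06 and 0.0225 by limma. Cth, which makes cysteine by transsulfuration, had signals of 5974 and 6019 in ES cells, 4770.3 and 4608 in line 1, 3404 and 3422 in line 2, and 5018 and 5211 in line 3 and was lower in all 3 lines, by limma (-0.35 ± 0.06, -0.81 ± 0.06 and -0.23 ± 0.06 in lines 1, 2 and 3).

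Among 15 tested amino acid carriers outside the 7 families, 1 was higher and 3 were lower in line 2, beside 16.1% and 10.6% of all tested genes. Slc25a13, the mitochondrial aspartate and glutamate carrier, had signals of 2536 and 2545 in ES cells, 1928 and 2051 in line 1, 1896 and 2045 in line 2, and 2071 and 1912 in line 3 and was lower in every line, by -0.35 ± 0.07, -0.37 ± 0.07 and -0.35 ± 0.07, each called by limma. Slc15a2, a peptide carrier, was higher in line 2 (1.03 ± 0.16), but by 0.26 and no longer called when all of its probe sets were averaged. Of 6 tested partner proteins of carriers, 3 were higher in line 2 by limma and the other 3 were not called. Bsg, the chaperone of monocarboxylate carriers that also associates with Slc3a2, had signals of 1839 and 1834 in ES cells, 2180.0 and 2017 in line 1, 3214 and 2950.0 in line 2, and 1736 and 1530.1 in line 3 and was higher in line 2 by 0.74 ± 0.08 (adjusted p = 3.43e-05, limma). The other two, Nedd4 and Sgk1, which govern removal and retention of carriers at the membrane, differed by 0.19 ± 0.06 and 0.27 ± 0.06; centring each array on its median lowered them to 0.06 and 0.15, with Bsg alone still called. The background shares for these lists are the 16.1% and 10.6% given above.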

How the data were processed

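RNA of 1 ES line and 3 iPS lines, 2 arrays each, was measured on Affymetrix arrays. The authors deposited 1 linear intensity value for each probe set and array, which the submitters' processing notes credit to MAS5. No version or detection call is given in the sources read. The mean after trimming 2% at each end was 500.004 in all 8 arrays, and no new scaling was applied. Gene names came from the platform annotation; of 45101 probe sets, 64 controls, 932 with several symbols and 9160 with none were left out, and all 125 probe sets of members matched RefSeq by entrez identifier.

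Values were log2(signal + 12), 12 being the 20th percentile of all signals. A probe set had to exceed 37.1, the 40th percentile, in at least 2 arrays, and that with the highest mean stood for its gene. Where all arrays of the lower group were at or under the floor, the change is a bound, taken as the higher group's geometric mean divided by that floor. Differences were fitted with limma 3.58.1 in R 4.3.3 (lmFit, eBayes with an intensity trend) in a group-means model over all 8 arrays, with 4 residual degrees of freedom (12.4 after moderation), two-sided, with Benjamini-Hochberg adjustment over 14004 genes; called means an adjusted p under 0.05. The procedure was tested on simulated data. The array number limits the precision.

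For each comparison with ES cells up to 10 called members a direction are named, for each pair of lines up to 5, and a list of main carriers always; list genes are the 4 with the smallest adjusted p for the mean and for line 2, with a few others named from the counts after their values were seen. The members and lists were chosen with earlier results of these data known. The alternatives changed the scaling, the pseudocount, the filter, the probe set rule, the variance model, the replicate block, the arrays left out and the unit of replication.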

Additional observations from a re-analysis of the deposited data

Results flagged for a closer look

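With 2 arrays a group, no group was large enough to look for outlying samples, so the differences given here are those between iPS lines that passed limma's test of the difference itself, as log2 differences with their SE. Line 2 stood above line 1 for Slc7a2 (1.54 ± 0.30, adjusted p = 0.00291), Slc38a3 (0.99 ± 0.31, 0.0363), Slc43a2 (0.84 ± 0.27, 0.0423), Slc38a6 (0.70 ± 0.19, 0.0204), Slc1a5 (0.42 ± 0.11, 0.0174) and Slc3a2 (0.39 ± 0.09, 0.00881). It stood below line 1 for Slc6a15 (-1.77 ± 0.12, adjusted p = 2.29e-06), Slc7a3 (-1.06 ± 0.08, 2.79e-06), Slc38a1 (-0.42 ± 0.08, 0.00159), Slc7a6 (-0.35 ± 0.09, 0.0115) and Slc6a8 (-0.34 ± 0.07, 0.00404). Slc38a10, outside the naming rule and named after its values were seen, was also higher (0.26 ± 0.07, adjusted p = 0.0124, limma). Scaling ended several of these calls, with adjusted p of 0.0731 for Slc38a3, 0.0628 for Slc38a6 and 0.102 for Slc43a2 under quantile normalization, and 0.0629 for Slc38a3, 0.0532 for Slc38a6, 0.0934 for Slc43a2, 0.134 for Slc1a5, 0.104 for Slc3a2 and 0.323 for Slc38a10 under median centring. Averaging probe sets ended the Slc43a2 call, and its second probe set read -0.07 in line 2 against line 1, so the direction depends on the probe set. The calls of Slc38a1, Slc38a3 and Slc38a10 also ended with averaging. The other probe sets of Slc38a10 read -0.19 to 0.36, so its direction depends on the probe set too. Single arrays ended several calls as well. The adjusted p of Slc1a5 was 0.116 without line 1 array 2 and 0.0901 without line 2 array 1. That of Slc38a3 was 0.208 without line 1 array 2, 0.175 without line 2 array 1 and 0.0853 without line 2 array 2. That of Slc38a6 was 0.114 without line 1 array 2 and 0.186 without line 2 array 2. That of Slc3a2 was 0.0878 without line 1 array 2 and 0.0881 without line 2 array 1. That of Slc43a2 was 0.226 without line 1 array 2, 0.158 without line 2 array 1, 0.127 without line 2 array 2, 0.0541 without line 3 array 1 and 0.0506 without line 3 array 2. That of Slc7a6 was 0.096 without line 1 array 1 and 0.0566 without line 2 array 2.

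Line 2 stood above line 3 for Slc7a2 (1.39 ± 0.30, adjusted p = 0.00369, limma), Slc1a4 (0.95 ± 0.16, 0.00078), Slc38a9 (0.78 ± 0.26, 0.0406), Slc6a7 (0.72 ± 0.25, 0.0428), Slc38a6 (0.66 ± 0.19, 0.0198) and Slc1a5 (0.45 ± 0.11, 0.00807). The same held for Slc38a4 (0.44 ± 0.07, adjusted p = 0.000341), Slc7a1 (0.37 ± 0.09, 0.00598) and Slc3a2 (0.32 ± 0.09, 0.0187). It stood below line 3 for Slc6a15 (-2.14 ± 0.12, adjusted p = 1.45e-07), Slc38a5 (-1.49 ± 0.53, 0.0487), Slc7a3 (-1.22 ± 0.08, 3.54e-07), Slc38a1 (-0.51 ± 0.08, 0.000234), Slc7a7 (-0.44 ± 0.13, 0.0172), Slc7a6 (-0.41 ± 0.09, 0.00286) and Slc6a8 (-0.41 ± 0.07, 0.000775). Slc38a10 was again higher in line 2 (0.20 ± 0.07, adjusted p = 0.0393, limma). Averaging probe sets ended this call and those of Slc38a9 and Slc7a1. Line 3 stood below line 1 for Slc38a4 (-0.31 ± 0.07, 0.0443), with the values without single arrays given above. For line 2 against line 3, quantile normalization gave adjusted p of 0.095 for Slc38a6, 0.114 for Slc38a9 and 0.136 for Slc6a7, and median centring gave 0.0771 for Slc38a6, 0.11 for Slc38a9, 0.118 for Slc6a7, 0.117 for Slc1a5, 0.356 for Slc3a2, 0.17 for Slc7a1 and 0.92 for Slc38a10. With arrays left out, the adjusted p of Slc1a5 was 0.0508 without line 2 array 1 and 0.0972 without line 3 array 2. That of Slc38a9 was 0.187 without line 2 array 1, 0.0837 without line 2 array 2, 0.159 without line 3 array 1 and 0.0812 without line 3 array 2. That of Slc6a7 was 0.121 without line 2 array 1, 0.149 without line 2 array 2, 0.171 without line 3 array 1 and 0.0858 without line 3 array 2. That of Slc38a6 was 0.196 without line 2 array 2, 0.0631 without line 3 array 1 and 0.0867 without line 3 array 2. That of Slc3a2 was 0.186 without line 2 array 1 and 0.117 without line 3 array 2, that of Slc7a1 was 0.0658 without line 3 array 2, and that of Slc7a7 was 0.0677 without line 2 array 1, 0.0553 without line 2 array 2 and 0.152 without line 3 array 1. That of Slc38a10 was 0.0576 without ES array 1, 0.0583 without ES array 2, 0.117 without line 2 array 1, 0.0944 without line 2 array 2, 0.156 without line 3 array 1 and 0.102 without line 3 array 2 here, and 0.0961 without line 1 array 1 and 0.0524 without line 2 array 1 against line 1. That of Slc38a5 rose above 0.05 when any single array was left out of the 8, from 0.0511 to 0.257. The lines share no arrays in these differences, but each pair of comparisons with line 2 shares its arrays.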

How the results depend on the processing

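Of 47 called member results over the 7 comparisons, 16 kept their direction and call under every alternative run, 20 for the mean of the lines and 18 for each other comparison. Of 163 uncalled results of the members named by rule or called in any comparison, 12 were called under some alternative. Without the variance trend, the calls fell from 4 to 1 for the mean of the lines, from 12 to 7 for line 2, from 1 to 0 for line 3, from 12 to 6 for line 2 against line 1, from 1 to 0 for line 3 against line 1 and from 17 to 10 for line 2 against line 3. Without line 2, and with line means as samples, the mean of the lines gave 0 calls by limma, with 6 and 0 members at an unadjusted p under 0.05. Line 3 against ES cells gave 2 calls with the floor at the 60th percentile, 0 with the mean of all probe sets and 2 with the replicate block. Line 3 against line 1 gave 0 calls by limma under median centring, without the filter, with probe sets averaged and with the replicate block, where 4 to 6 members had an unadjusted p under 0.05. Line 2 against line 1 gave 7 calls with median centring. Leaving out 1 array in turn gave 2 to 4 calls for the mean of the lines, 0 for line 1, 6 to 13 for line 2, 0 to 2 for line 3, 7 to 12 for line 2 against line 1, 0 to 1 for line 3 against line 1 and 10 to 18 for line 2 against line 3. When _x_at and _s_at probe sets were left out, Slc38a1 turned to 0.19 in line 2 against ES cells, 0.20 against line 1 and 0.10 against line 3, since another probe set then stood for it. With all probe sets averaged, Slc38a3 turned to -0.079 in line 2 against line 1. The cause of the other changes was not tested. The replicate numbers did not pair the arrays, since the deviations of same-numbered arrays correlated at -0.0137 to 0.0284 over 6 pairs of groups, and the block left 4, 0, 12 and 16 calls for the mean, line 1, line 2 and line 2 against line 3, and 12 for line 2 against line 1. The companion lists kept 12 of 27 sensing genes in line 2 but 7 without the variance trend, and 13 of 29 enzymes but 7 without the trend and 8 without ES array 1. Signals near the floor limit what dim members such as Slc38a5, Slc1a1 and Slc7a10 can show.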
